A study of Homo sapiens with 4 samples.

Results

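Chromatin accessibility was examined at 9 human genes of hepatic glucose production and its control, namely PCK1, PCK2, G6PC1, FBP1, PC, PPARGC1A, FOXO1, TAT and GCKR, out of 20033 protein-coding genes in GENCODE release 44. The genes were chosen by name for their role in the liver, and a region belonged to a gene when a called peak overlapped the gene body or the 10 kb on either side of it. Of 80551 merged peak regions in the series, 47 met this rule. The cells were HepG2, a line from a human hepatocellular carcinoma and labelled wild type, profiled with Omni-ATAC-seq, in which a transposase cuts open chromatin and tags the fragments for sequencing. There were 2 libraries of cells labelled untreated (control 1 and 2) and 2 of cells given 5 µM tazemetostat for 48 h (tazemetostat 1 and 2), each from 50000 cells. Tazemetostat blocks EZH2, the methyltransferase of a polycomb complex that marks repressed genes on histone H3. All 4 libraries came from a single tumour line, which is not a primary hepatocyte. Tazemetostat was dissolved in DMSO, and whether control cells for ATAC-seq received DMSO is not given in the sources used here. The sources do not say whether libraries of a group came from separate cultures, so the tests measure the spread between these libraries, which may be technical.

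Gluconeogenesis makes glucose from lactate, glycerol and amino acids during fasting, mainly in hepatocytes. PC forms oxaloacetate from pyruvate, the PEPCK enzymes PCK1 (cytosol) and PCK2 (mitochondria) turn oxaloacetate into phosphoenolpyruvate, FBP1 removes a phosphate from fructose bisphosphate, and G6PC1 releases free glucose. Glucagon acts through cyclic AMP and CREB, glucocorticoids through their receptor and insulin through FOXO1, while the coactivator PPARGC1A amplifies these signals. TAT starts the breakdown of tyrosine, and GCKR holds glucokinase inactive in the nucleus when glucose is low.

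Depth was 17.2 to 26.6 M mapped tags per library and overlapped between the groups. The 2 control libraries held 4.32% and 5.69% of their tags in peaks, and the tazemetostat libraries held 11.5% and 9.81%. The number of peaks in a whole library was 1.80 times higher under tazemetostat, and tag counts at regions called in every library shifted upward as a whole, by a median of 0.70 on the log2 scale. A position with no peak carries no value, and the lowest normalised tag counts listed were 4.89 to 6.4. The normalised tag count, the measure used below, is the number of tags in a peak per 10 M mapped tags. Of 9 hepatocyte genes, 5, 5, 6 and 7 had a peak within 1 kb of their start in control 1, control 2, tazemetostat 1 and tazemetostat 2. AFP, APOA1, APOB and HNF4A had a peak in every library, whereas TTR and SERPINA1 had none. Of 10 genes of blood, endothelium, fibroblasts, neurons and muscle, none had such a peak in the controls, and MYOD1 (tazemetostat 1) and SNAP25 (tazemetostat 2) each had 1.

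To see how the 9 genes were covered, regions were classed by the libraries in which a peak was called. Of the 47 regions, 25 were called in all 4 libraries (termed shared), 2 in both tazemetostat libraries and neither control (tazemetostat-only), and 0 in both controls alone (control-only). In the whole series, 16430 of 80551 regions were shared, 13.7% were tazemetostat-only and 0.449% were control-only. Of the other 20 regions, 6 were called in 3 libraries, 5 of them with no peak in control 1 and 1 with none in control 2. One region of PC was called in control 2 and tazemetostat 1. The remaining 13 were called in 1 library, with tag counts from 6.02 to 24.2 and a median of 7.98. Control 2 held 6 of these, tazemetostat 1 held 4, tazemetostat 2 held 3 and control 1, the shallowest library, held 0. The tazemetostat-only regions belonged to PCK1 and PPARGC1A, or 2 of 9 genes, against 32.5% of all protein-coding genes with at least 1 such region in their window. Longer genes hold more of them. Among genes within 1.5-fold of the length of PCK1, 21.3% had a tazemetostat-only region, and among genes within 1.5-fold of the length of PPARGC1A, 52.2% did.

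**Figure D1:**
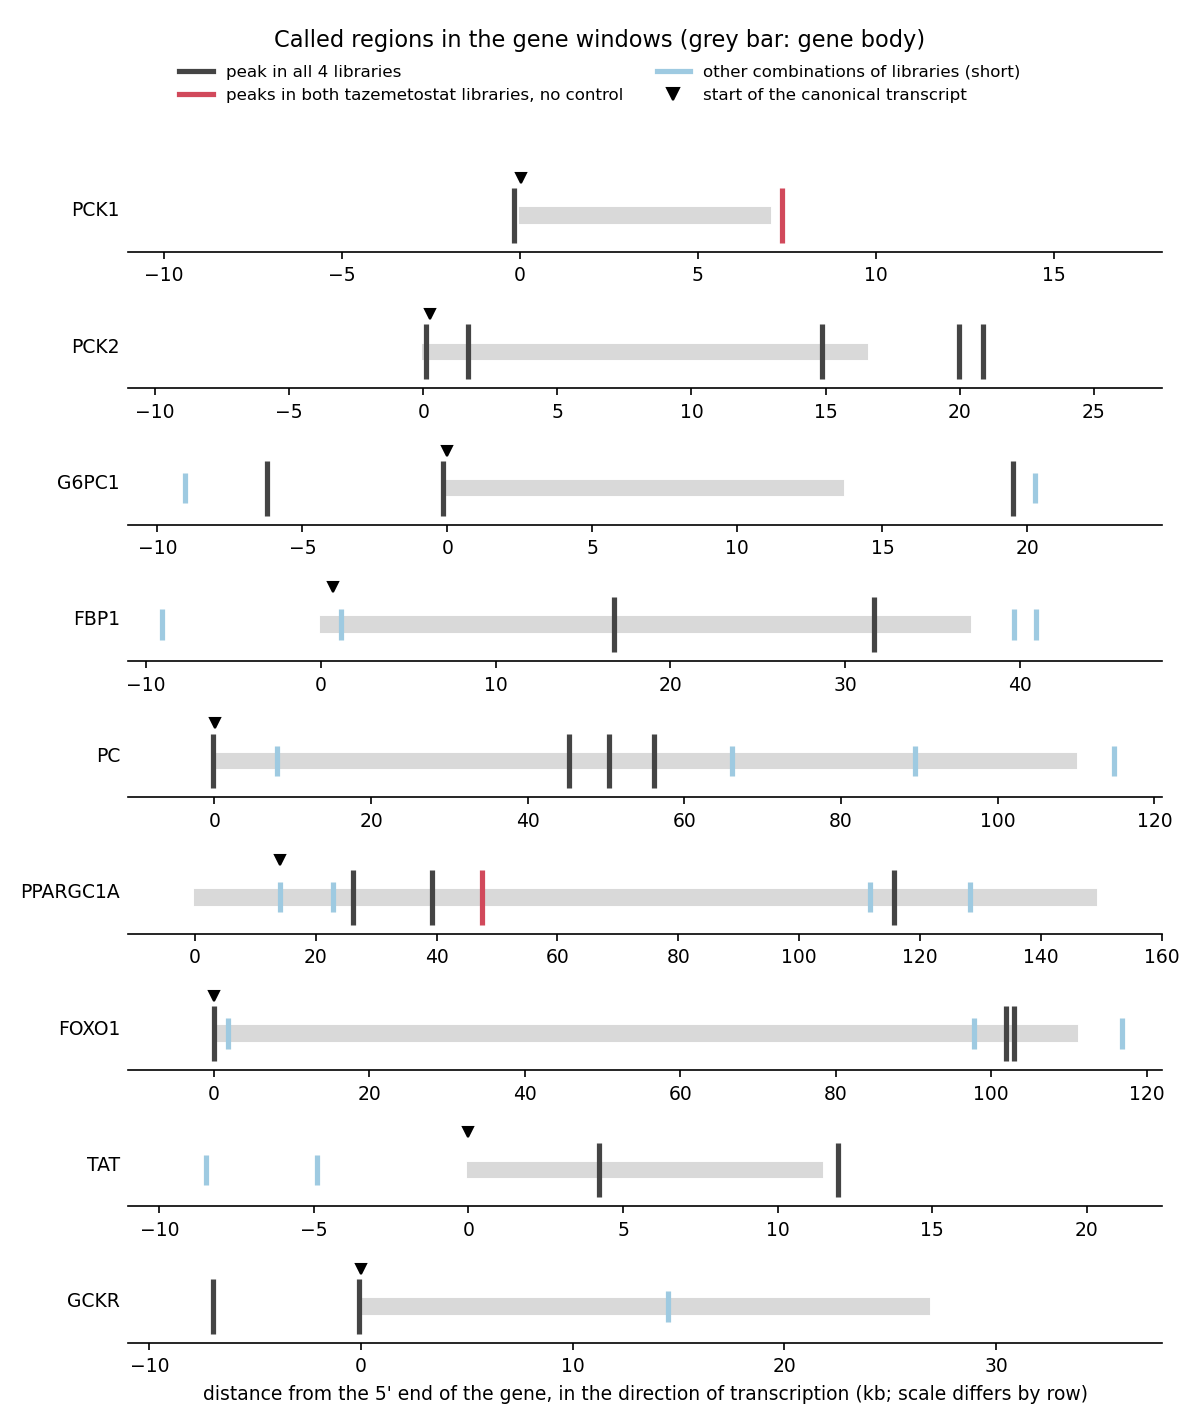
Position of the 47 called regions in the windows of the 9 genes, 1 row per gene, with the horizontal axis in kb from the 5′ end of the gene. Tall dark bars are the 25 regions called in all 4 libraries, red bars the 2 tazemetostat-only regions (PCK1 and PPARGC1A), short blue bars the other 20, and triangles the start of the canonical transcript.

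The windows of the 9 genes held 26 peaks in control 1, 37 in control 2, 40 in tazemetostat 1 and 36 in tazemetostat 2. The groups overlapped, since control 2 lay above tazemetostat 2. The means were 31.5 ± 7.78 and 38 ± 2.83 (SD, n = 2 each), a ratio of 1.21 (exact permutation p = 0.6667, two-sided). Per 10000 peaks of a library, the windows held 9.95 (control 1), 10.6 (control 2), 7.23 (tazemetostat 1) and 6.65 (tazemetostat 2), so their share of all peaks was lower in both treated libraries (exact permutation p = 0.3333, two-sided, the smallest that 2 against 2 libraries allow). The peaks in the windows covered 11.4 and 16.5 kb in the controls and 22.3 and 20.2 kb under tazemetostat. Their summed tag count per kb of peak was 52.9 and 54.6 in the controls and 69.7 and 64.3 under tazemetostat. Both measures were higher in each tazemetostat library than in each control, again with the smallest possible exact permutation p of 0.3333, two-sided.

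To ask which regions differed in tag count, limma was run on log2(normalised tag count + 1) over all 15383 regions with exactly 1 peak in every library, 24 of them in the windows of the 9 genes. Of these 24, 11 were higher under tazemetostat at an adjusted p under 0.05 (limma, Benjamini-Hochberg over all tested regions) and 0 were lower, and 0 were lower also at an unadjusted p under 0.05. Over all tested regions, 42.7% were higher and 0.247% were lower, so the share among the 9 genes, 45.8%, was close to the background. The estimated change was above 0 at 24 of 24 regions, from 0.49 to 1.79, with a median of 0.75 against 0.70 over all tested regions. Both tazemetostat values exceeded both control values at 22 of the 24 regions, against 81.6% of all tested regions. When the libraries were scaled to each other rather than to mapped tags, 0 of the 24 passed in either direction. With edgeR and TMM factors the estimate was above 0 at 14 and below 0 at 10, 3 had an unadjusted p under 0.05, and 0.15% of all tested regions passed as higher and 1.13% as lower. With each library centred on its median in limma, 12 estimates were above 0 and 12 below, and 1 had an unadjusted p under 0.05. In that fit 0 of all 15383 tested regions passed in either direction. DESeq2 called 0, with 2 at an unadjusted p under 0.05, and over all tested regions it called 3 higher and 106 lower. The number of regions that passed depended on which library was left out, here as over all tested regions. With any 1 library left out, the estimate stayed above 0 at 24 of 24 regions. The median change over all tested regions was 0.61 without tazemetostat 1, 0.80 without tazemetostat 2, 0.57 without control 1 and 0.80 without control 2. The word "rose" is used below for a region that passed in limma on the scale of mapped tags, and the excess over the general shift of 0.70 is given where it was large. A larger share of open cells and more openness per cell cannot be told apart in these bulk libraries. The share of tags in peaks also differed between the groups (4.32% and 5.69% in the controls, 11.5% and 9.81% under tazemetostat). Its part in the general shift cannot be told apart from treatment and was not tested.

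**Figure D2:**
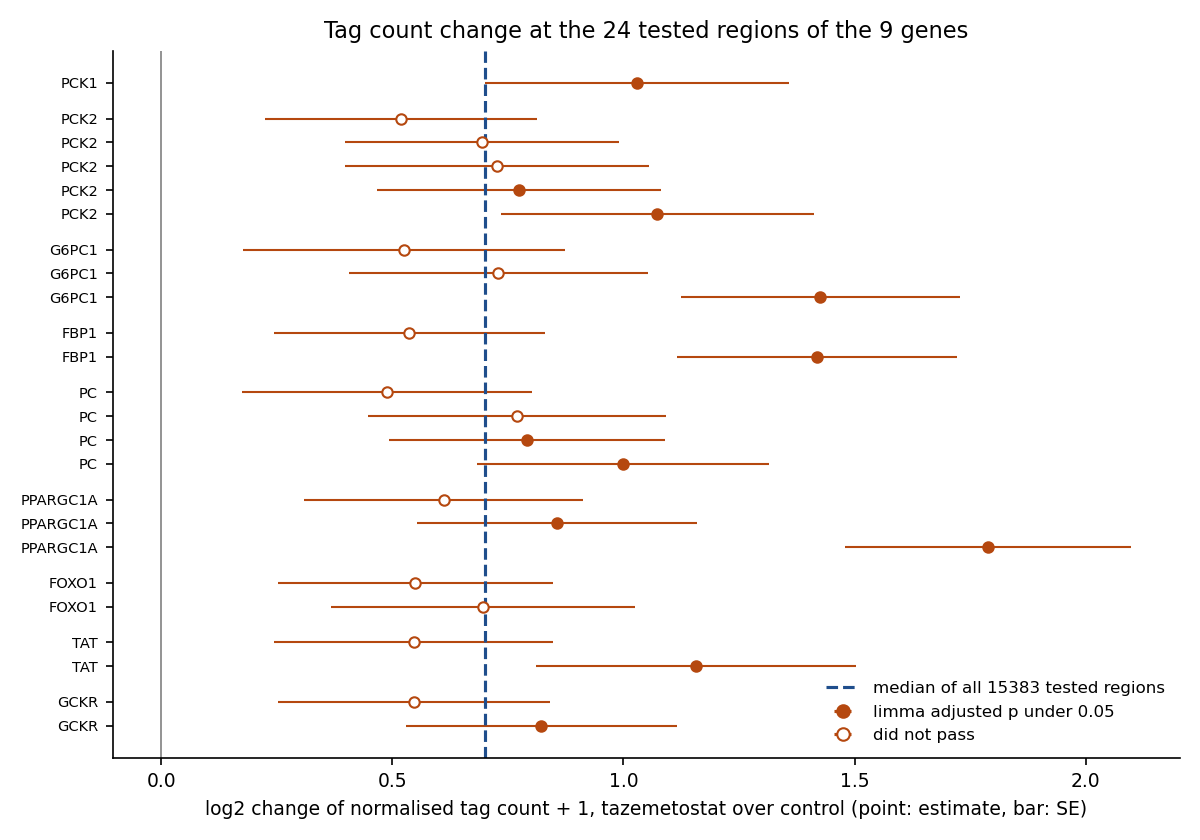
Log2 change of the normalised tag count + 1, tazemetostat over control, at the 24 tested regions, grouped by gene, with points as limma estimates and bars as SE. Filled points are the 11 regions with an adjusted p under 0.05, and the dashed line is the median of all tested regions, 0.70, with points on either side of it and all of them above 0.

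PCK1, the cytosolic PEPCK and a rate-setting enzyme of the pathway, lies at chr20:57561080-57568121 (plus strand, ENSG00000124253.11, hg38) and had 2 called regions, 1 at either end of the gene. The start region, chr20:57560595-57561262, spanned the gene start and had tag counts of 19.2 and 37.8 in the controls and 62.5 and 50.4 under tazemetostat. Both treated libraries were above both controls, and control 1 was lowest. The region rose 1.98-fold (28.5 ± 13.2 to 56.5 ± 8.56, SD, n = 2 each), with a log2 change of 1.03 ± 0.33 (SE) and an adjusted p of 0.0234 in limma. The change was 0.56 without control 1 and 1.5 without control 2. The peak was also longer under tazemetostat, 623 and 606 bp against 392 and 533 bp.

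The second PCK1 region, chr20:57568177-57568721, was tazemetostat-only and lay 56 bp past the 3′ end of the gene, outside any annotated gene. No peak was called in either control, and the tag counts were 37.8 in tazemetostat 1 and 17.3 in tazemetostat 2. Tazemetostat 1 was well above tazemetostat 2. The fold over the surrounding 10 kb, which had to reach 4 for a call, was 7.32 and 4.97. The peak was 530 bp long in tazemetostat 1 and 300 bp in tazemetostat 2, and the shorter peak did not span all of the bases shown. The central 300 bases of the merged region are given, and they held no match to any of the 5 motifs searched.
PCK1 tazemetostat-only region, chr20:57568299-57568598, plus strand: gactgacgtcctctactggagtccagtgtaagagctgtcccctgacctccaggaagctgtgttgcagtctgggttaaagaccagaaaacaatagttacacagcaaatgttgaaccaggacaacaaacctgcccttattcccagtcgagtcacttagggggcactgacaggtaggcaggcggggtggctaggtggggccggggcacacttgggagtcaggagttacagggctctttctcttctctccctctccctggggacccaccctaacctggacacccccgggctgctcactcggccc

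PCK2, the mitochondrial PEPCK, lies at chr14:24094053-24110598 (plus strand, ENSG00000100889.12), inside the span of NRL, and all 5 of its regions were shared. The start region, chr14:24093839-24094473, had 40.1 and 61.3 in the controls and 108.8 and 62.9 under tazemetostat. Tazemetostat 2 lay just above control 2, and the log2 change of 0.73 ± 0.33 (SE) did not pass (limma adjusted p = 0.0711). A region in intron 1, chr14:24095401-24096041, had 66.3, 76.9, 124.5 and 108.4 in control 1, control 2, tazemetostat 1 and tazemetostat 2. It did not overlap between groups but also missed the threshold (log2 change 0.69, limma adjusted p = 0.0593). The highest mean tag count of any region near the 9 genes, though not the highest in control 1, was in chr14:24114385-24115443, 3787 bp past the end of PCK2 and within 1 kb of the starts of NRL and DCAF11, with 51.8 and 112.6 in the controls and 173.3 and 151.3 under tazemetostat. This region rose with a log2 change of 1.07 ± 0.34 (SE, limma adjusted p = 0.0223), with control libraries farther apart than the treated ones. The change was 0.52 without control 1 and 1.63 without control 2. A weaker region further along the gene body, with 14 to 18.9 in the controls and 24.1 to 33.8 under tazemetostat, also rose (log2 change 0.77, limma adjusted p = 0.0477).

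PC, pyruvate carboxylase, lies at chr11:66848417-66958386 (minus strand, ENSG00000173599.15) and had 8 regions, 4 of them shared. The start region, chr11:66958181-66959020, had 35.5, 52.5, 72.6 and 51.2 in control 1, control 2, tazemetostat 1 and tazemetostat 2. The groups overlapped, as control 2 exceeded tazemetostat 2, and the log2 change of 0.49 ± 0.31 (SE) was the smallest of the 24 tested regions (limma adjusted p = 0.177). A region in intron 3, chr11:66901892-66902605, had 17.5 and 30.7 in the controls and 49.4 and 45.5 under tazemetostat and rose 1.97-fold (log2 change 1.00 ± 0.32, SE, limma adjusted p = 0.0225), with a change of 0.61 without control 1. Per kb of peak this region no longer passed (limma adjusted p = 0.155), since its peaks were 611 and 713 bp long under tazemetostat against 389 and 452 bp. A region over an alternative start of PC, chr11:66907665-66908333, had 13.4, 24.4, 35.8 and 27.9 in the same order and did not pass (log2 change 0.77, limma adjusted p = 0.0562). The fourth shared region, also in intron 3, had 15.1, 11.3, 23.7 and 23 and rose (log2 change 0.79, limma adjusted p = 0.0405), but per kb of peak the change was 0.097 and did not pass (limma adjusted p = 0.717). The other 4 regions were called in 1 to 3 libraries with tag counts of 6.02 to 24.2.

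FBP1, fructose bisphosphatase, lies at chr9:94603133-94640249 (minus strand, ENSG00000165140.12) and had 6 regions, 2 of them shared and both in introns. No shared region lay at its start. A single peak of tazemetostat 2, with a tag count of 9.03, lay 302 bp from the canonical start. The strongest region, chr9:94608111-94609083 in intron 4, had 30.2 and 21 in the controls and 71.6 and 66.6 under tazemetostat. Each treated library was far above each control, by much more than the spread within either group (25.6 ± 6.51 and 69.1 ± 3.54, SD, n = 2 each). The region rose 2.70-fold, with a log2 change of 1.42 ± 0.30 (SE, limma adjusted p = 0.0067 for a change from 0), 0.72 above the general shift. It was among the 6 regions that also passed per kb of peak (limma adjusted p = 0.00168), but not with TMM factors in edgeR (log2 change 0.74, adjusted p = 0.157). A faint region in intron 1 had 8.14, 8.4, 12.1 and 12.8 and did not pass (limma adjusted p = 0.12).

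G6PC1, the glucose phosphatase that completes the pathway, lies at chr17:42900797-42914438 (plus strand, ENSG00000131482.10) and had 5 regions, 3 of them shared. The start region, chr17:42900391-42900918, had 9.89 and 19.3 in the controls and 22.2 and 25.2 under tazemetostat. The groups did not overlap, but control 2 and tazemetostat 1 lay close together, and the log2 change of 0.73 ± 0.32 (SE) did not pass (limma adjusted p = 0.0674). An upstream region, chr17:42894233-42894904, inside the noncoding gene LINC00671, had 12.2, 21.8, 33.8 and 16.9 and overlapped between groups (limma adjusted p = 0.189). A region 5532 bp past the gene, chr17:42919970-42920605, had 12.2 and 8.4 in the controls and 28.2 and 29.7 under tazemetostat. It rose 2.81-fold, with a log2 change of 1.43 ± 0.30 (SE, limma adjusted p = 0.00658 for a change from 0). The change was 0.73 above the general shift. The region also passed per kb of peak (limma adjusted p = 0.0188), but not with TMM factors in edgeR (log2 change 0.81, adjusted p = 0.368).

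TAT, tyrosine aminotransferase, lies at chr16:71565660-71577092 (minus strand, ENSG00000198650.11) and had 4 regions, none of them at its start. The region with the highest mean over the 4 libraries, chr16:71572496-71573241 in intron 4 and under the antisense gene TAT-AS1, had 9.31 and 23.1 in the controls and 34.8 and 33.5 under tazemetostat. It rose 2.11-fold (log2 change 1.16 ± 0.35, SE, limma adjusted p = 0.0186), with treated libraries close together and controls far apart. The change was 0.54 without control 1 and 1.77 without control 2, and per kb of peak it was 0.52 and did not pass (limma adjusted p = 0.052). A region 87 bp past the end of TAT and near the start of ZNF19, chr16:71564715-71565573, had 20.9, 16.8, 24.2 and 32 and did not pass (limma adjusted p = 0.124). Another region, 4517 bp upstream of the start, was called in 3 libraries with 11.3 in control 2, 23.7 in tazemetostat 1 and 28.2 in tazemetostat 2. Control 1 had no peak there, so it was not tested.

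GCKR, the glucokinase regulatory protein, lies at chr2:27496839-27523684 (plus strand, ENSG00000084734.9) and had 3 regions. Its start region, chr2:27496393-27497103, had 32.6 and 30.3 in the controls and 57.4 and 55.3 under tazemetostat. Replicates lay close together in both groups. The region rose 1.79-fold (31.5 ± 1.63 to 56.4 ± 1.48, SD, n = 2 each, log2 change 0.82 ± 0.29, SE, limma adjusted p = 0.0334). Per kb of peak it did not pass (log2 change 0.43, limma adjusted p = 0.0993). A region 6697 bp upstream, near the start of IFT172, had 32.6, 37, 54.4 and 48.2 and did not pass (log2 change 0.55, limma adjusted p = 0.117). The third region was a peak of control 2 alone, with 7.98 in intron 16.

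**Figure D3:**
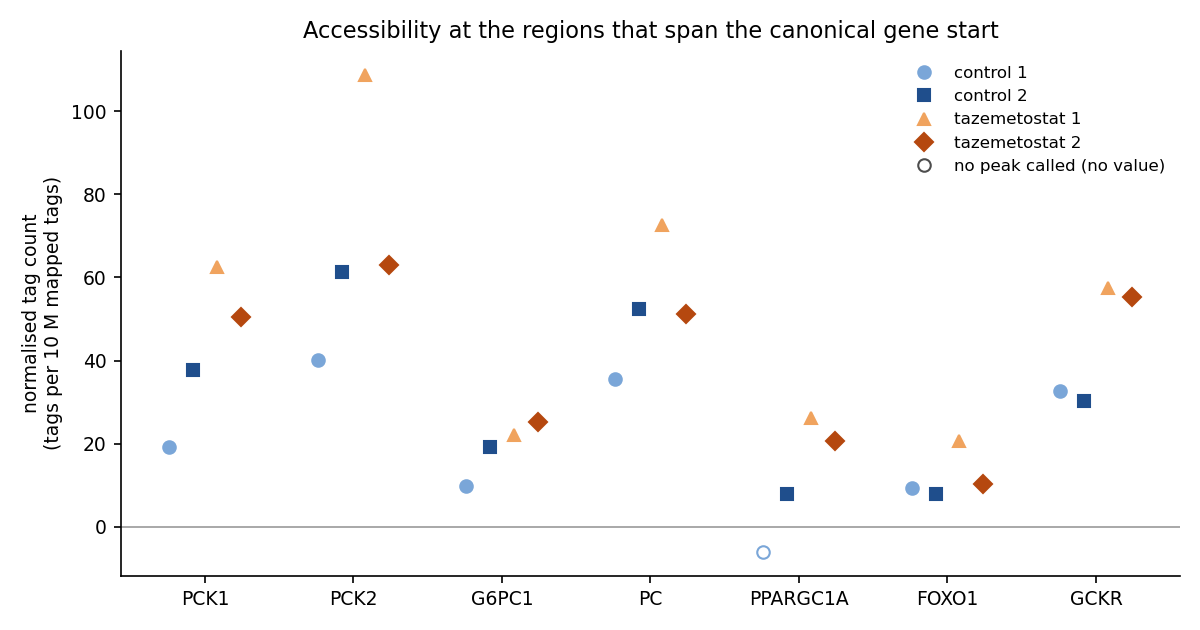
Normalised tag count (tags per 10 M mapped tags) in each of the 4 libraries at the 7 regions that span a canonical gene start, 1 point per library and no averaging. The open mark for PPARGC1A stands for control 1, where no peak was called, and the groups overlap at PC.

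Regions at gene starts were shared for 6 of the 9 genes (PCK1, PCK2, G6PC1, PC, FOXO1 and GCKR), against 30.7% of all protein-coding genes. FBP1, TAT and PPARGC1A had none. Of the 6 start regions, those of PCK1 and GCKR rose on the scale of mapped tags (GCKR not per kb of peak) and the other 4 did not pass. Over all tested regions, 42.7% were higher on that scale, and differences between the start regions were not tested.

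PPARGC1A, a coactivator induced by fasting that works with HNF4A and FOXO1 at gluconeogenic genes, lies at chr4:23755041-23904089 (minus strand, ENSG00000109819.9) and had 8 regions. No region lay at the GENCODE 5′ end, but its canonical transcript starts 14042 bp further in, at position 23890047, and a region there, chr4:23889762-23890335, was called in 3 libraries. It had no peak in control 1, 7.98 in control 2, 26.2 in tazemetostat 1 and 20.7 in tazemetostat 2. This region holds a match to the cyclic AMP response element (CRE, TGACGTCA), the site class bound by CREB, at chr4:23890172-23890179, 125 bases upstream of the canonical start. A region over a RefSeq start further into the gene, chr4:23880901-23881451 in intron 2, also lacked a peak in control 1 and had 11.8, 19.7 and 25.2 in the other libraries. Neither could be tested, and in both the treated libraries lay above control 2.

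The tazemetostat-only region of PPARGC1A, chr4:23856043-23856986 in intron 2, lay 33061 bp from the canonical start. It had no peak in either control, 20.7 in tazemetostat 1 (2 peaks summed) and 20 in tazemetostat 2. The treated libraries lay close together here, unlike at the tazemetostat-only region of PCK1. The central 300 bases are shown because peaks were called in the region in both treated libraries and in neither control. These bases held no match to the motifs searched.
PPARGC1A tazemetostat-only region, chr4:23856364-23856663, minus strand: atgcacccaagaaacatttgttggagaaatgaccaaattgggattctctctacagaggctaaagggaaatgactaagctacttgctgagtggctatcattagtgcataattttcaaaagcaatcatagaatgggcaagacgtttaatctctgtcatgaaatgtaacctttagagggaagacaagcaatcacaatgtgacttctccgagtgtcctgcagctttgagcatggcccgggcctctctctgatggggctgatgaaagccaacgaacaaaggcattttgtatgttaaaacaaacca

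The shared PPARGC1A regions with the highest mean tag counts over the 4 libraries were both in intron 2. In chr4:23877688-23878207 the tag counts were 22.1, 31.1, 41.3 and 39.9, and the change did not pass (log2 change 0.61, limma adjusted p = 0.0918). In chr4:23864461-23865166 they were 19.2, 26.1, 45.9 and 37.3, and the region rose (log2 change 0.86 ± 0.30, SE, limma adjusted p = 0.0325). The third shared region, chr4:23787940-23788912, was singled out after its values were seen. It lay inside the gene body beyond the end of the canonical transcript, with 14.5 and 8.82 in the controls and 40.8 and 42.5 under tazemetostat. It rose 3.57-fold (11.7 ± 4.02 to 41.7 ± 1.20, SD, n = 2 each), with a log2 change of 1.79 ± 0.31 (SE, limma adjusted p = 0.00364 for a change from 0), 1.09 above the general shift. This was the largest change of the 24 tested regions and exceeded 99.8% of all tested regions, though the region did not pass with TMM factors in edgeR (log2 change 1.16, adjusted p = 0.103). Its peaks were 920 and 954 bp long under tazemetostat and 407 and 300 bp in the controls, and per kb of peak the change was 0.45 and did not pass (limma adjusted p = 0.0915). Its central 300 bases are shown as the middle of the region with the largest change, and they held no match to the motifs searched. Outside these bases the region held a match to the FOXA motif (TGTTTAC or TATTTAC), at chr4:23788581-23788587.
PPARGC1A region of largest change, chr4:23788276-23788575, minus strand: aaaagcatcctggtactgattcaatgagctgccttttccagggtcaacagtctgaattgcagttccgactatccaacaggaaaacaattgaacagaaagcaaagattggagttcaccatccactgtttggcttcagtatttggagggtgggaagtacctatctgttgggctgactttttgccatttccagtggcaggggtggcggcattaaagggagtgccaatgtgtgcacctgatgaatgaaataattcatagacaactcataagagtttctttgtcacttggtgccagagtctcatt

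**Figure D4:**
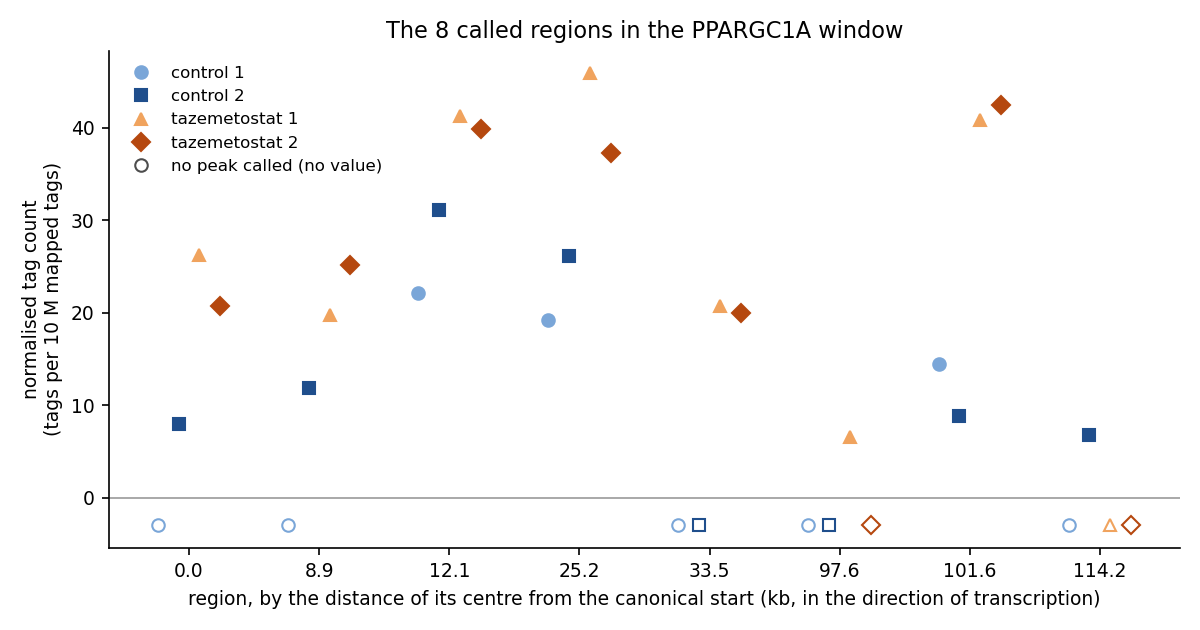
Normalised tag count (tags per 10 M mapped tags) of the 8 PPARGC1A regions in each library, ordered by distance from the canonical start in kb. Open marks below 0 stand for libraries with no peak. The treated libraries lie above both controls at the 3 regions called in all 4 libraries, as at 81.6% of all tested regions. They lie above control 2 at the 2 regions with no peak in control 1. The tazemetostat-only region has no control value, and the remaining 2 regions were each called in a single library.

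PPARGC1A peaks also stood out from their surroundings more than those of the other members. The median fold over the surrounding 10 kb was 13.8 at PPARGC1A, 5.01 at the other 8 genes and 5.85 over all peaks of the series. Of 137 peak values in the windows, 22 had a local fold of 8 or more, and 16 of these were at PPARGC1A.

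FOXO1, the forkhead factor that insulin removes from the nucleus, lies at chr13:40555667-40666641 (minus strand, ENSG00000150907.10) and had 6 regions. The start region, chr13:40666322-40667026, had 9.31 and 7.98 in the controls and 20.7 and 10.2 under tazemetostat. Only tazemetostat 1 stood apart, and the log2 change of 0.70 ± 0.33 (SE) did not pass (limma adjusted p = 0.0804). A pair of shared regions lay in intron 1 near the far end of the gene. The longer, chr13:40563199-40564271, had 10.5, 21, 41.3 and 22.6 and was not tested, because its signal was split into 2 peaks in tazemetostat 1. The other, chr13:40564403-40565032, had 18, 18.5, 24.2 and 30.5 and did not pass (log2 change 0.55, limma adjusted p = 0.117). FOXO1 was the only one of the 9 genes with no tested region that rose, but only 2 of its regions were tested. Over all tested regions, 42.7% were higher, so most regions did not pass. In 1 further FOXO1 region, 1530 bp from the start, control 1 had a peak of 14 and control 2 had none, the reverse of the 5 other regions called in 3 libraries.

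Short consensus motifs of hepatic regulators were searched on both strands in the 47 regions, and 14 held at least 1 match over their whole length. In the central 200 bases, the HNF4 motif (CAAAGTCCA or CAAAGTTCA) occurred in 2 regions, both at FOXO1, or 4.26% against 2.34% of all regions. The FOXA motif (TGTTTAC or TATTTAC) occurred in 3 regions, or 6.38% against 9.87%. The FOXO motif (GTAAACAA), which overlaps the reverse complement of the FOXA motif, occurred in 1, or 2.13% against 2.59%. The CRE occurred in 1, or 2.13% against 0.391%, not counting the match in the PPARGC1A start region, which lay outside the central 200 bases. The CEBP motif (TTGCNNAAT) occurred in 0 of 47 centres, against 2.55% of all regions. With 47 regions these shares are descriptions and were not tested, and a match is not evidence of binding.

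Peaks of the 24 tested regions had median lengths of 393 and 468.5 bp in the controls and 622 and 613.5 bp under tazemetostat. Over all tested regions the medians were 409, 502, 579 and 585 bp. Both tazemetostat peaks were longer than both control peaks at 17 of the 24 regions, against 48.0% of all tested regions. Tag counts per kb of peak, which remove this difference in length, were higher at 6 of the 24 regions and lower at 0 (limma), against 32.9% higher and 0.26% lower over all tested regions. The median change per kb was 0.43 at the 24 regions and 0.41 over all tested regions. The peak caller was run with another fragment length in each group (200 bp in the controls and 144 bp under tazemetostat), and its part in peak length cannot be told apart from treatment.

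A further 38 genes of the pathway and its control were examined in the same way. Peaks in their windows numbered 62 in control 1, 81 in control 2, 105 in tazemetostat 1 and 102 in tazemetostat 2. Of their 139 regions, 13 were tazemetostat-only, against 13.7% of all regions. Of the 38 genes, 11 had a tazemetostat-only region and 0 a control-only region, and 15 had a shared region at the gene start. Among all protein-coding genes, 32.5% had a tazemetostat-only region and 30.7% a shared region at the start. Of 45 tested regions, 16 were higher under tazemetostat and 0 lower in limma. The share higher was 35.6%, against 42.7% of all tested regions, and the median change was 0.70. Among the 17 enzymes and transporters, which include the glucose transporter gene SLC2A2, 4 of 23 tested regions rose (17.4%). Among the 17 control genes, which include the glucagon receptor gene GCGR and HNF4A, 11 of 19 rose (57.9%). Among the 4 genes of the glycolytic side, 1 of 3 rose. Per kb of peak the counts turned around, with 9 of 23 regions higher at the enzymes and transporters and 1 of 19 at the control genes (limma). Over all tested regions that share was 32.9%. Differences between these groups of genes were not tested. With TMM factors in edgeR, 0 of the 45 passed in either direction, 5 having an unadjusted p under 0.05.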

How the data were processed

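ATAC-seq libraries were made by the authors from HepG2 cells. The labels and methods name Trim Galore 0.6.6 for trimming, Bowtie2 2.3.5.1 for alignment to hg38 with inserts up to 2000 bp, and HOMER 4.11.1 for peak calling. The file headers show that 300 bp peaks of every library were called separately and stitched into regions of variable length, with a local fold of at least 4, a local p-value of 0.0001 and a false discovery rate of 0.001 (the methods state 0.05).

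The main deposited value, the normalised tag count, is a signal in tags per 10 M mapped tags. The deposited score, a count of tags, was not used for testing. The deposited local fold is a ratio and was used for description and as a filter. The deposited p-value was not used, nor was the clonal fold, a further deposited ratio. The tag count times mapped tags was within 0.25 of a whole number in 100% of rows, and these whole tags entered edgeR and DESeq2.

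Peaks overlapping by at least 1 bp were merged across libraries. Regions with exactly 1 peak in each library were tested with limma 3.58.1 on log2(tag count + 1), where changes of low values appear smaller than they are. P-values were adjusted by Benjamini-Hochberg and read at 0.05. Alternatives were median centring, a pseudocount of 5, values per kb, edgeR 4.0.16, DESeq2 1.42.0 (both in R 4.3.3), a replicate block, summed peaks, a local fold of at least 8, an equal number of peaks, another overlap, another window, and leaving out each library. Values per library entered an exact permutation test, two-sided. Genes came from GENCODE release 44 and further transcript starts from RefSeq (GRCh38.p14). A few searched or listed items are not reported here.

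For each gene the text names the start region, all tazemetostat-only and control-only regions, and the 2 other regions with the highest mean tag count. A further shared region of PPARGC1A and a few weaker regions were added after their values were seen. The 9 genes, the gene lists and the motifs were chosen with earlier results of these data known. Merging and fitting were tested on simulated data. Groups and replicate numbers came from the sample titles.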

Additional observations from a re-analysis of the deposited data

How the results depend on the processing

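Depth limits what an absent peak means, since a position with no peak has no value, and 2 libraries per group allow no exact p below 0.3333. The count of 11 higher regions became 0 under median centring, edgeR with TMM factors and DESeq2, 6 per kb of peak, and 2 at a local fold of at least 8 (3 member regions tested), and it ranged from 0 to 17 when a library was left out. The count was 8 with the replicate block. The same-numbered libraries did not deviate together over 15383 regions (correlation -0.00246), but a shift common to all regions would not show in this value. The count was 14 with a pseudocount of 5, 13 with edgeR on the header sizes and 11 with tag counts summed over peaks. No alternative called a region lower. Of the 11 regions, 5 lost their call per kb of peak and 3 with the replicate block, and 3 others passed with a pseudocount of 5. DESeq2 gave no adjusted p to the FBP1 intron 1 region and the FOXO1 start region. An overlap of at least 50% of either peak left the region classes at 2 and 0.

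Tazemetostat-only regions numbered 2 with the main rule and 0 at a local fold of at least 8, 9 when called in any library of the group, and 1 within 10 kb of the gene start, and 3 to 7 when a library was left out. The genes with such a region numbered 0, 6 and 1 under those settings, and 3 to 5 when a library was left out. Control-only regions numbered 6 when called in any library, 1 with equal numbers of peaks (the faint FBP1 region in intron 1, whose treated peaks fell below the limit), and 0 to 6 when a library was left out. The excess of peaks in the windows under tazemetostat, 6.5 per library, was 0.152 per 1 M mapped tags and turned to -3.36 per 10000 peaks of the library, and it ranged from 1 to 12 when a library was left out.

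Of the 13 tested regions that missed the threshold, 12 turned below 0 in at least 1 fit that removes the general shift, and the alternative start of PC stayed above 0. These regions were picked by their smaller changes, so values near or below 0 follow from the choice once a shift near 0.70 is removed. With median centring, 6602 of all 15383 tested regions were above 0. None of the 13 passed in these fits, so the values below are not declines. With median centring, edgeR with TMM factors and DESeq2, in that order, the log2 change was -0.066, -0.020 and -0.018 in PCK2 intron 1, -0.24, -0.19 and -0.19 at the weaker downstream PCK2 region, -0.24, -0.20 and -0.17 upstream of G6PC1, -0.030, -0.026 and -0.0046 at the G6PC1 start, -0.22, -0.11 and -0.12 in FBP1 intron 1, -0.27, -0.25 and -0.24 at the PC start, -0.15, -0.11 and -0.10 at the shared PPARGC1A intron 2 region that missed the threshold, -0.21, -0.11 and -0.12 in FOXO1 intron 1, -0.21, -0.11 and -0.12 downstream of TAT, and -0.21, -0.16 and -0.16 upstream of GCKR. With median centring it was also -0.033 at the PCK2 start and -0.064 at the FOXO1 start.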
